A study of Homo sapiens and Mus musculus with 213 samples.

Results

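The genes described here encode the MLL and SET1 complexes, the main human enzymes that methylate lysine 4 of histone H3 (H3K4). They are 10 of the 58336 genes listed in the deposited RNA-seq table. The list was given by name, and all 10 were found through their Ensembl identifiers. Of these, 6 encode catalytic subunits (KMT2A, KMT2B, KMT2C, KMT2D, SETD1A and SETD1B) and 4 encode the core subunits that every one of these complexes carries (WDR5, ASH2L, RBBP5 and DPY30).

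Methylated H3K4 marks the promoters and enhancers of active genes. SETD1A and SETD1B place much of the trimethyl mark at active promoters, KMT2A and KMT2B act at promoters that include those of the HOX genes, and KMT2C and KMT2D place the monomethyl mark at enhancers. An isolated SET domain of these enzymes is a weak methyltransferase, and the module of WDR5, RBBP5, ASH2L and DPY30 raises its activity.

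The study edited the MYC promoter of HEK293T, a transformed cell line that goes back to human embryonic kidney, at a motif that can fold into a G-quadruplex (G4), a 4-stranded structure of guanine-rich DNA. RNA-seq was deposited for 3 lines with 3 libraries each. MYC WT (WT) keeps the natural motif, MYC MUT (MUT) carries point mutations that prevent folding, and the SWP line carries a different G4-forming motif in its place. The edited lines were made with CRISPR and grown from single sorted cells, so a line can differ from WT by more than the edit. The libraries of a line are labelled as biological replicates 1 to 3, but the labels do not say whether they came from separate clones or only from separate cultures, so the p-values measure the spread between these libraries.

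The libraries held from 65024354 to 98497026 reads assigned to genes. The deposited unit is a normalized count, the reads of a gene divided by 1 size factor for the library. The first principal component, with 58.6% of the variance, set the 3 MUT libraries apart from WT and SWP. The library headers of WT carry a sequencing pool name that those of MUT and SWP lack, so that pool and line cannot be told apart in a comparison with WT. Of the markers of the labelled cells, VIM had 51600 to 63780.0 normalized counts and PAX2 149 to 435, while INS, HBB and UMOD had 0 reads in every library. MYC, the edited gene, had means of 23332 normalized counts in WT, 11423 in MUT and 21489 in SWP, and fell in MUT against WT by 1.02 on the log2 scale (adjusted p = 0.00182, limma).

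Since the study concerns a G4 at a promoter, the promoters of the members were searched for the canonical G4 motif, 4 runs of at least 3 G parted by loops of 1 to 7 bases on either strand, in the 250 bases upstream of each RefSeq start (GRCh38.p14). RefSeq gave promoters for 7 of the 10 members, and 4 of these genes held the motif (KMT2A, KMT2B, KMT2C and 1 of the 4 promoters of WDR5). Counted by promoter, 4 of the 10 promoters of members held it, beside 8236 of the 35116 promoters of the table (23.5%). These 4 promoters had 78.4% to 92.0% GC, against a median of 58.0% over the table. KMT2D, SETD1A and RBBP5 held none. A match of letters is a description of the sequence and not a folded structure. The promoters of KMT2A, the single member called, and of KMT2D, an enzyme of similar length without the motif, are shown with the motif in capitals, 5′ to 3′ on the strand of the gene. In KMT2A the capitals are runs of C, so that the G-runs lie on the other strand, and GENCODE 44 starts its gene within the window shown. The window of KMT2A is chr11:118436242-118436491 (+ strand) and that of KMT2D is chr12:49060795-49061044 (- strand).
KMT2A: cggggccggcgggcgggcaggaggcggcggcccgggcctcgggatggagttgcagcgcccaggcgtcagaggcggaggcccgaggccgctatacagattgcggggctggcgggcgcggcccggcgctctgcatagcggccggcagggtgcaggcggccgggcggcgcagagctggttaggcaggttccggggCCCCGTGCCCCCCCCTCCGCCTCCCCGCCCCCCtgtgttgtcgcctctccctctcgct
KMT2D: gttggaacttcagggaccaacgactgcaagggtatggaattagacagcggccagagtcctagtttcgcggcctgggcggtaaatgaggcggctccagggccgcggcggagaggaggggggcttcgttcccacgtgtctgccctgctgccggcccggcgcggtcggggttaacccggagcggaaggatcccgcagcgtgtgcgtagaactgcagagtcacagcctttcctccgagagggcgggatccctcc

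KMT2A was the single member that passed both thresholds in any comparison: it was lower in MUT than in SWP. A gene is called here when limma, fitted on log2(normalized count + 1) over 20884 genes, gave an adjusted p below 0.05 and the log2 fold change exceeded 0.5 in size. KMT2A encodes MLL1, which needs the cofactor menin, is cleaved by taspase 1 and is the gene broken in MLL-rearranged leukaemia. Its normalized counts were 8889, 10845 and 7483 in WT replicates 1 to 3, 6730.5, 5801 and 7904 in MUT, and 10515, 9776 and 11887 in SWP. Every MUT library lay below every SWP library, whereas WT lay across the gap and overlapped both edited lines. The mean in MUT was 63.5% of that in SWP, a log2 fold change of -0.66 ± 0.14 (SE, 95% interval -0.97 to -0.35), with an adjusted p of 0.0035 by limma. Against WT, MUT had 75.1% of the mean count (log2 fold change -0.41, interval -0.72 to -0.10, adjusted p = 0.0396, limma), which is short of the fold threshold. This difference depended on the scaling, on the variance model and on single libraries. Its adjusted p was 0.0723 with equal totals, 0.054 with equal upper quartiles and 0.0849 with eBayes without a trend. Without MUT replicate 2 the log2 fold change was -0.30 with an adjusted p of 0.156, without WT replicate 2 it was -0.27 with 0.148, and with WT replicate 3 left out it was -0.54 and passed both thresholds, as it did at -0.52 without MUT replicate 3. SWP against WT gave 0.25 (interval -0.06 to 0.56, adjusted p = 0.315, limma).

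In the contrast of MUT with SWP, 20.6% of all tested genes were called, so 1 of 10 members is below the background share. In MUT against WT, 21.4% of tested genes were called and 0 of 10 members by limma, with 0 by edgeR and 0 by DESeq2 on reads recovered from the deposited values. In SWP against WT, 5.13% of tested genes and 0 of 10 members were called, again with 0 by both count tools. At an unadjusted p under 0.05, 3 members passed in MUT against WT, 1 in SWP against WT and 1 in MUT against SWP, where 47.6%, 23.9% and 47.2% of all tested genes did. At the adjusted p alone, 38.4% of all tested genes passed in MUT against WT and 2 of 10 members (KMT2A and ASH2L), 9.97% and 0 members in SWP against WT, and 38.0% and 1 member in MUT against SWP. The median log2 fold change of the 10 members was -0.01 in MUT against WT, 0.03 in SWP against WT and -0.09 in MUT against SWP, beside -0.003, -0.06 and 0.04 over all tested genes. Libraries of the groups did not overlap for 2 members in MUT against WT, 0 in SWP against WT and 2 in MUT against SWP, where 52.3%, 24.6% and 52.3% of tested genes did not overlap. The comparisons share libraries in pairs, so their values are not independent of each other.

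**Figure D1:**
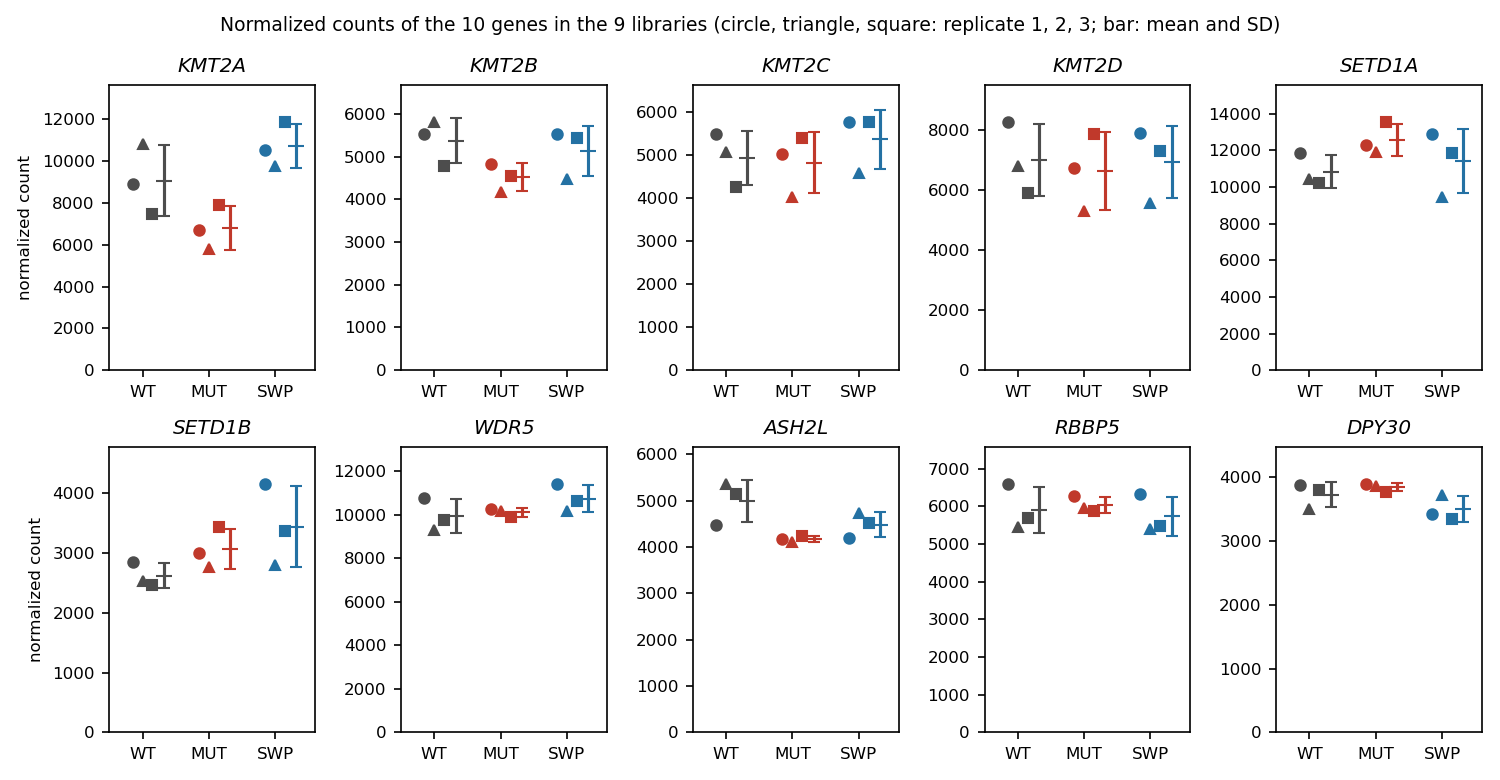
Normalized counts (vertical axes, from 0) of the 10 genes in the WT, MUT and SWP lines, with 1 symbol per library (circle, triangle and square for replicates 1, 2 and 3) and the mean with its SD beside them. For KMT2A the MUT libraries lie between 5801 and 7904 and the SWP libraries between 9776 and 11887, while for most other genes the 3 lines overlap.

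Among the other MLL-type enzymes, KMT2B, the closest relative of KMT2A, had 5522, 5815 and 4789 normalized counts in WT, 4837, 4175 and 4555 in MUT, and 5530.1, 4465 and 5425 in SWP. All MUT values but that of replicate 1 lay below the WT range, and the lines overlapped. KMT2B in MUT was 84.1% of WT (log2 fold change -0.25, interval -0.47 to -0.02, adjusted p = 0.0763, limma) and 88.0% of SWP (-0.18, adjusted p = 0.185, limma).

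KMT2C and KMT2D, the enhancer-type enzymes, gave values close to each other in the 3 lines. KMT2C had 5484, 5078 and 4247 normalized counts in WT, 5023, 4025 and 5395 in MUT, and 5772, 4580.1 and 5757 in SWP. KMT2D had 8289.6, 6811 and 5908 in WT, 6757, 5309.8 and 7896 in MUT, and 7912, 5595 and 7326 in SWP. For both genes each line covered much of the range of the others. In MUT against WT the log2 fold change was -0.04 for KMT2C (interval -0.33 to 0.25) and -0.08 for KMT2D (interval -0.45 to 0.29), and both intervals include 0. The human genome holds near-identical copies of part of KMT2C, and how the authors counted reads that match several places is not given in the sources used here, so its counts are uncertain.

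SETD1A, the catalytic subunit of one SET1 complex, had 11854, 10429.9 and 10206 normalized counts in WT, 12289, 11903 and 13560.0 in MUT, and 12877, 9462 and 11858 in SWP. Every MUT library was above every WT library, with SWP on both sides of them. MUT had 116% of the WT mean (log2 fold change 0.22, interval -0.02 to 0.46, adjusted p = 0.138, limma). SETD1B, its paralog, had 2857, 2533 and 2471.2 in WT, 3005, 2768 and 3436 in MUT, and 4153, 2798 and 3369.7 in SWP. The highest value was SWP replicate 1, and SWP replicate 2 lay inside the WT range. SETD1B in SWP was 131% of WT (log2 fold change 0.38, interval 0.09 to 0.67, unadjusted p = 0.0156 and adjusted p = 0.103, limma). With the replicate number as a block the adjusted p was 0.0169, at the same fold, which is short of the threshold. SETD1B passed both thresholds without SWP replicate 2 (0.52, adjusted p = 0.0286, limma).

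**Figure D2:**
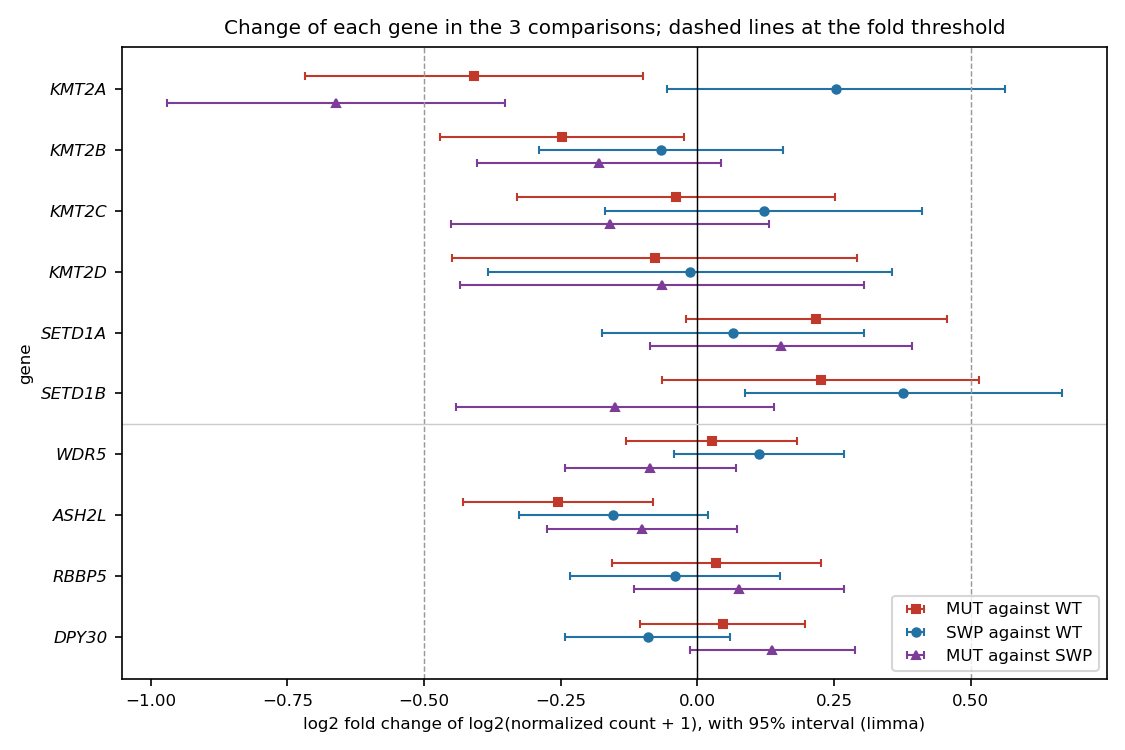
Log2 fold change (horizontal axis) of each gene with its 95% interval from limma in MUT against WT (squares), SWP against WT (circles) and MUT against SWP (triangles), with the catalytic subunits above the grey line and the core subunits under it. KMT2A in MUT against SWP, at -0.66, is the single point past the fold threshold of 0.5 (dashed), and the core subunits have the narrower intervals.

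The core subunits changed little, and 1 of the 4 passed an adjusted p of 0.05 in any comparison. ASH2L, which with DPY30 stimulates the catalytic subunit, had 4472, 5356 and 5146 normalized counts in WT, 4178, 4099 and 4236 in MUT, and 4186, 4726 and 4526 in SWP. The 3 MUT values lay within a narrow band below every WT value, with SWP overlapping both. ASH2L in MUT was 83.6% of WT (log2 fold change -0.25, interval -0.43 to -0.08, adjusted p = 0.025, limma), a size under the fold threshold. The adjusted p stayed below 0.05 in only 9 of 17 alternatives. With the libraries rescaled to equal totals the difference was -0.18 and the adjusted p 0.124, and without WT replicate 2 the adjusted p was 0.0862. ASH2L against SWP gave -0.10 (adjusted p = 0.339, limma).

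WDR5, the scaffold that binds the WIN motif of the catalytic subunits, had 10772, 9288 and 9760.5 normalized counts in WT, 10252, 10173 and 9886 in MUT, and 11409.7, 10188 and 10614 in SWP. Its log2 fold change in MUT against WT was 0.03 (interval -0.13 to 0.18). RBBP5, which contacts both ASH2L and the catalytic subunit, had 6593, 5443 and 5685 in WT, 6279, 5952 and 5867 in MUT, and 6326, 5409.9 and 5472 in SWP. It gave 0.03 in MUT against WT (interval -0.16 to 0.23). The lines overlapped for both genes.

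DPY30, which binds ASH2L, had 3872, 3498 and 3797 normalized counts in WT, 3888, 3860.3 and 3769 in MUT, and 3414, 3723 and 3347 in SWP. The MUT values lay above the SWP values, and those of WT lay across both. The log2 fold change in MUT against SWP was 0.14 (interval -0.01 to 0.29, adjusted p = 0.138, limma). In GENCODE 44, 1385 bases of the exons annotated to DPY30 are shared with MEMO1 on the same strand, so reads there cannot be given to one gene, and MEMO1 itself had a mean of 171 normalized counts.

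Levels can be compared between genes only per length. Per kilobase (kb) of the MANE Select transcript, the mean normalized count in WT was 5410.0 ± 288 (SD, n = 3) for DPY30, 3149 ± 240.1 for WDR5, 1808 ± 149 for SETD1A, 1711 ± 158 for ASH2L, 1353 ± 139 for RBBP5, 634 ± 62.3 for KMT2B, 547 ± 102 for KMT2A, 339 ± 58.3 for KMT2D, 306 ± 24.2 for SETD1B and 293 ± 37.4 for KMT2C. The core subunits were thus above 5 of the 6 enzymes, and SETD1A stood among the core subunits. SETD1A and ASH2L, KMT2B and KMT2A, and the neighbours from KMT2D to KMT2C did not differ beyond their SD. Per kb of all annotated exons the order changed: WDR5 led with 2735 and DPY30 had 1366, ASH2L at 882 stood under RBBP5 at 1341, and KMT2A at 288 stood under SETD1B at 306. KMT2C was last on both scales, with 92.6 per kb of exon. Per kb values of KMT2A, KMT2C and KMT2D rest on long transcripts of 16600, 16860 and 20635 bases, against a median of 3408 bases over the 13663 tested genes with a MANE transcript.

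Within a library, the share of each enzyme gene in the summed normalized count per kb of exon of the 6 does not depend on the size factor. SETD1A held 51.5% ± 2.11 (SD, n = 3) in WT, 57.3% ± 1.58 in MUT and 50.6% ± 0.676 in SWP. KMT2A held 9.57% ± 1.55 in WT, 6.85% ± 0.467 in MUT and 10.7% ± 1.18 in SWP. KMT2B held 16.5% ± 1.06, 13.3% ± 0.999 and 14.8% ± 0.51, and SETD1B 10.2% ± 0.393, 11.4% ± 0.288 and 12.4% ± 0.957 in the same order. KMT2C held 3.07%, 2.86% and 3.13%, and KMT2D 9.10%, 8.26% and 8.44%. The levels of these shares, and of the ratio of enzymes to core subunits given below, depend on the length used. All annotated exons of KMT2C and KMT2A cover 53322 and 31469 bases, against 16860 and 16600 in their MANE Select transcripts.

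In MUT against WT the shares of KMT2A and KMT2B were lower and those of SETD1A and SETD1B higher in all 3 libraries than in any WT library. Each gave p = 0.1 in the exact two-sided permutation test, the smallest that 3 against 3 can give, and 0.15 after Benjamini-Hochberg adjustment over the 6 genes. In MUT against SWP the shares of KMT2A and KMT2C were lower and that of SETD1A higher without overlap (exact p = 0.1, adjusted 0.2). In SWP against WT KMT2B had a lower and SETD1B a higher share without overlap (exact p = 0.1, adjusted 0.3). A gain in the share of one gene lowers those of the others by construction. The log2 ratio of the 6 enzymes to the 4 core subunits was -1.07 ± 0.108 (SD, n = 3) in WT, -1.004 ± 0.14 in MUT and -0.98 ± 0.189 in SWP, and the lines overlapped in each comparison.

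The 6 enzyme genes varied together between libraries of a line. In WT replicate 3, MUT replicate 2 and SWP replicate 2, all 6 had their lowest value of the line, at a median of -0.19, -0.18 and -0.24 from the mean of the line on the log2 scale. The core subunits did not share this: 0, 1 and 2 of the 4 had their lowest value there, and their median deviations were 0.003, -0.005 and 0.003. All 6 enzyme transcripts are at least 5991 bases long. The 2632 tested genes with a MANE transcript of that length or more had median deviations of -0.09, -0.04 and -0.02 in these libraries, beside 0.02, 0.002 and 0.005 in the 8813 genes of at most 4367 bases. The long genes of high GC content (159 genes of at least 59.8% GC) gave -0.08, -0.02 and -0.05. The part of transcript length and of RNA quality in the spread of the enzymes was not tested. Coefficients of variation over the 3 libraries of a line ranged from 6.89% to 19.8% for the enzymes and from 1.62% to 10.3% for the core subunits.

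Since the edited lines were grown from single cells, the tested genes within 5 Mb of a member were set beside it. For the 93 neighbours of KMT2A on chromosome 11 the median was -0.20 in MUT against SWP on the log2 scale, with KMT2A itself at -0.66, and 0.03 in MUT against WT, with KMT2A at -0.41. In SWP against WT these neighbours stood at 0.19, close to the 0.25 of KMT2A. The 126 neighbours of SETD1B on chromosome 12 were at 0.24 in SWP against WT, with SETD1B at 0.38 and the whole chromosome at -0.02. For SETD1A on chromosome 16 the 149 neighbours were at 0.16 in MUT against WT, near its own 0.22. ASH2L on chromosome 8 was at -0.25 in MUT against WT beside 63 neighbours at 0.13 and a chromosome median of -0.14. Copy number was not measured here, and its part in these values was not tested.

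The related genes were described by 6 lists. Of the 14 accessory subunits of the complexes, all were tested and 0 were called by limma in the 3 comparisons, where 21.4%, 5.13% and 20.6% of all tested genes were called in MUT against WT, SWP against WT and MUT against SWP. The adjusted p alone was passed by 3 of the 14 in MUT against WT, beside 38.4% of all tested genes. Of these, PAGR1, a partner of KMT2C and KMT2D, was higher in MUT than in WT (log2 fold change 0.46, adjusted p = 0.0297, limma), as was NCOA6 of the same complexes (0.30, adjusted p = 0.0357, limma). KAT8, the acetyltransferase that joins the KMT2A complex, was lower (-0.26, adjusted p = 0.0244, limma). MEN1, which encodes menin, gave 0.15 in MUT against WT and 0.24 in SWP against WT, and neither passed. HCFC2 was higher in SWP than in WT (0.42, adjusted p = 0.0281, limma), the 1 gene of the list to pass there, beside 9.97% of all tested genes. HCFC2 was lower in MUT than in SWP (-0.46, adjusted p = 0.00544, limma), where 38.0% of all tested genes passed. PAGR1 (0.48, adjusted p = 0.0247, limma) and NCOA6 (0.34, adjusted p = 0.0209, limma) also passed in MUT against SWP, both higher in MUT. There PAGR1 and NCOA6 kept an adjusted p below 0.05 under 11 and 13 of 17 alternatives. In SWP against WT, HCFC2 lost the adjusted p in 5 of 17 alternatives, at 0.061 with eBayes without a trend and at 0.0625 to 0.101 without WT replicate 2 or 3 or SWP replicate 1 or 2. PAGR1, NCOA6, KAT8, MEN1 and HCFC2 were picked from the list after their values were seen. In MUT against WT, PAGR1, NCOA6 and KAT8 kept an adjusted p below 0.05 under 11, 12 and 11 of 17 alternatives and lost it in the others, among them the omission of single libraries of either line, with highest values of 0.094, 0.139 and 0.125.

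Among the enzymes that remove the mark, the paralogs KDM1A and KDM1B fell in the MUT line. Of the 7 genes in the demethylase list 6 were tested, and both genes were called in MUT against WT and in MUT against SWP, with 0 of the 6 called in SWP against WT. The tested genes include RCOR1, a partner of KDM1A that is not itself a demethylase and is named here for that reason (0.15 in MUT against WT). That is 2 of 6 genes where 21.4% and 20.6% of all tested genes were called. KDM1A, the flavin-dependent demethylase LSD1, had 22900.0, 21687 and 22599 normalized counts in WT, 15816, 15378 and 15273 in MUT, and 22056, 22124 and 22369 in SWP. The MUT libraries lay far below both other lines, which overlapped. The log2 fold change was -0.53 ± 0.05 (SE) in MUT against WT and -0.52 in MUT against SWP, with -0.01 in SWP against WT. Its fold lay near the threshold, and with equal totals it was -0.46 in MUT against WT and -0.49 in MUT against SWP. With equal upper quartiles the fold of KDM1A was -0.4935 in MUT against WT, also short of the threshold, and -0.5132 in MUT against SWP. Its adjusted p was still at most 0.000457 in every alternative. KDM1B, its paralog LSD2, had 8648, 8595 and 7980.5 in WT, 5158, 4984 and 5342 in MUT, and 7176.5, 7722 and 7506 in SWP. The 3 lines did not overlap for KDM1B. It gave -0.70 ± 0.06 (SE) in MUT against WT and -0.53 in MUT against SWP, and the SWP line stood at -0.17 against WT (adjusted p = 0.121, limma). The medians of the 6 tested genes were -0.16 in MUT against WT, -0.05 in SWP against WT and -0.14 in MUT against SWP.

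The list of readers held 20 genes, not all of which read methylated H3K4. Of these 20 genes 18 were tested, and 1 rose in MUT against WT (21.4% of all tested genes were called), with 0 called in the other comparisons. It was DIDO1, a PHD finger protein, with means of 9168 in WT, 13689 in MUT and 9915 in SWP (log2 fold change 0.58, adjusted p = 0.000967 in MUT against WT, limma, and 0.47 in MUT against SWP). Of the 9 other SET-domain genes 8 were tested, and PRDM9, the meiotic H3K4 methyltransferase, was called in MUT against WT (2.41) and in MUT against SWP (2.04), values that depend on the pseudocount: with 10 in place of 1 they were 1.47 and 1.28, and still called. Its level was low in every line, with 4.10 to 8.66 normalized counts in WT, 31.1 to 35.1 in MUT and 3.46 to 11.5 in SWP. The mean of PRDM9 over the libraries, 15.8, reached the minimum of 10 for testing only through MUT, as WT and SWP had means of 5.75 and 8.19. Its calls therefore concern a gene that was tested because it is high in MUT. PRDM9 was named after its values were seen because it was the single gene of its list to be called. Of the 15 methyltransferases of other histone residues, EZH1, the paralog of the Polycomb methyltransferase EZH2, fell in MUT against WT (-0.78, adjusted p = 0.000477, limma). The other 14 were not called there, where 21.4% of all tested genes were. At the adjusted p alone, 6 of the 15 passed in MUT against WT, all lower, beside 38.4% of all tested genes. In MUT against SWP 6 passed, all lower, beside 38.0%, among them EZH1 (-0.43, adjusted p = 0.0151, limma). In SWP against WT 3 passed, all higher, beside 9.97%. EZH1 had means of 2239 in WT, 1290.3 in MUT and 1746 in SWP.

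All 11 genes of the list known to depend on the KMT2A complex were tested. In MUT against WT, where KMT2A was at 75.1%, 0 of 11 were called by limma, where 21.4% of all tested genes were, and their median log2 fold change was 0.07, with 6 higher and 5 lower. In MUT against SWP, where KMT2A fell, 1 rose, 1 fell and the median was -0.04, so that 18.2% of the list was called beside 20.6% of all tested genes. In SWP against WT 1 rose and 1 fell, 18.2% of the list beside 5.13% of all tested genes. At the adjusted p alone, 3 of the 11 were higher and 4 lower in MUT against SWP, where 38.0% of all tested genes passed. By the same measure 1 was higher and 1 lower in MUT against WT, beside 38.4%. In SWP against WT 2 were higher and 1 lower, beside 9.97%. HOXB4 was the one called higher in MUT against SWP (0.79, adjusted p = 0.000154, limma). Its normalized counts were 802, 670.1 and 829.8 in WT, 950.3, 845 and 885 in MUT, and 558, 495 and 495 in SWP, so that SWP lay below both other lines, and HOXB4 fell in SWP against WT by 0.57 on the log2 scale (adjusted p = 0.00548, limma). HOXC8 fell in MUT against SWP (-0.55, adjusted p = 0.0131, limma), with means of 454 in WT, 369 in MUT and 541 in SWP, but without MUT replicate 2 its adjusted p was 0.0611 and without SWP replicate 1 its fold was short of the threshold. CDKN1B, the inhibitor p27 of cyclin-dependent kinases, rose in SWP against WT (0.51, adjusted p = 0.00223, limma), with 4055, 4391 and 5015.5 normalized counts in WT and 6416, 6563 and 6074 in SWP. The fold of CDKN1B was barely past the threshold, and it was down to 0.44 without single libraries (replicates 1 and 2 of either line), at an adjusted p of at most 0.0163. Of the others, MEIS1, the HOX cofactor, was lower in MUT than in WT at -0.38 (adjusted p = 0.00404, limma), which is short of the fold threshold, and it was named after its values were seen.

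**Figure D3:**
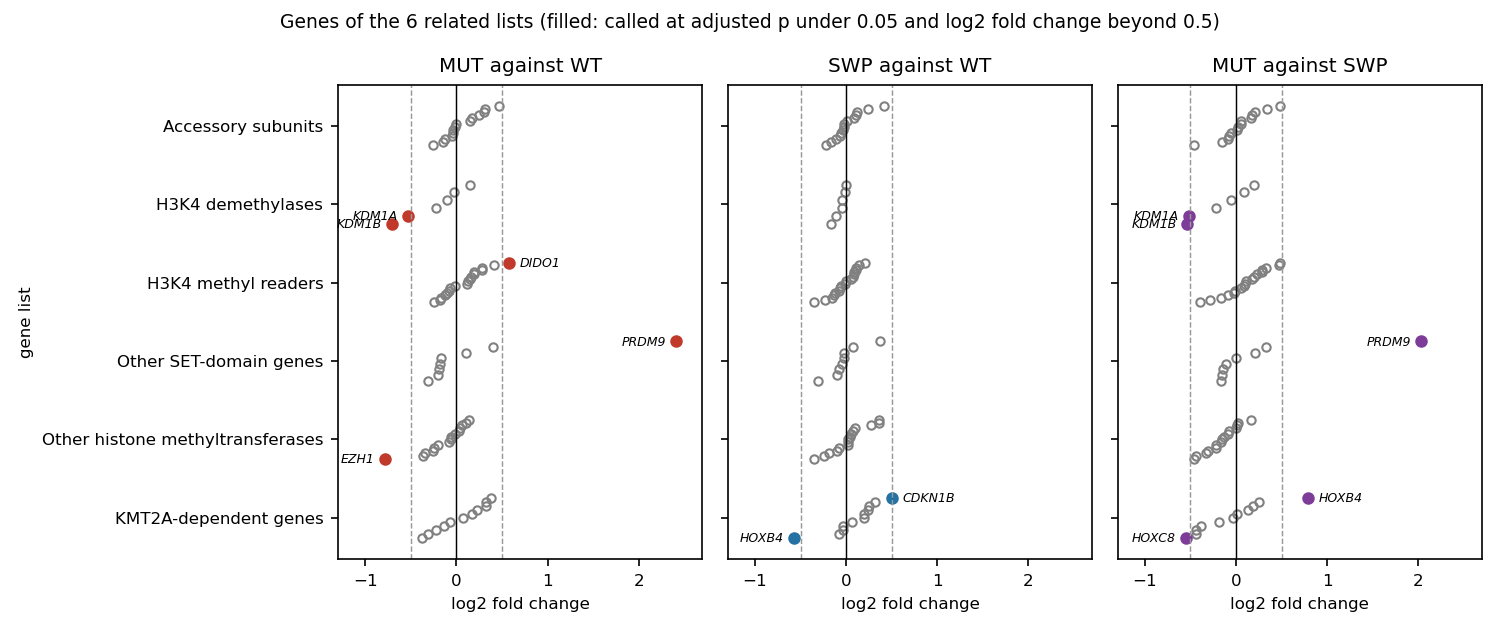
Log2 fold change (horizontal axes) of each tested gene of the 6 related lists in the 3 comparisons, with open circles for genes not called and filled, named circles for those called, whose fold lies past the dashed lines at 0.5. KDM1A and KDM1B lie past the lower line in both comparisons that hold MUT, 0 of the accessory subunits are filled, and the genes of the KMT2A list lie on both sides of 0.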

How the data were processed

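Polyadenylated RNA was made into directional libraries, and the authors mapped the reads on hg38 using bwa mem, an aligner that does not bridge introns, followed by SAMtools for sorting and Picard for duplicates. The counting tool and its use of strand are not given in the sources used here. The deposited unit is a signal: reads of a gene over the size factor that DESeq2 gave its library. Steps between low values returned that factor, and 100% of the values then gave whole reads within a tolerance of 1e-06.

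Comparisons were fitted with limma 3.58.1 (R 4.3.3; lmFit, then eBayes with a trend) to log2(normalized count + 1) without a block. The 9 libraries entered 1 fit over 20884 genes whose mean reached 10 normalized counts, and p-values were adjusted over all of them by Benjamini-Hochberg. Members, lists and tests were chosen with earlier results of these data known. The text names all members, MYC, and from each list at most 4 genes called in some comparison with a mean of at least 50 normalized counts, and it says where it names others. Positions and lengths come from GENCODE 44, which matched 57754 of the 58336 identifiers; the authors' release differed. Shares and ratios have an exact two-sided permutation test, and division by MANE length was added after the data were seen. edgeR 4.0.16 and DESeq2 1.42.0 were run on the recovered reads as alternatives, and the scripts were tested on simulated data. Replicate numbers are shared between lines, and deviations of same-numbered libraries correlated at 0.555, 0.403 and 0.102 for SWP with WT and at 0.333, 0.241 and 0.232 for MUT with SWP. Every library of MUT and SWP correlated best with its own number in the other line, with no label that says why. Between SWP and WT this held for replicates 1 and 2 but not for replicate 3, so the numbers do not fully pair these lines. MUT and WT were not taken as paired. Python 3.11.15 and matplotlib 3.10.9 drew the figures. Of the 213 samples listed for the series these 9 are reported, and the other assays were not analysed here. Some genes of the lists and markers are not reported here by name.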

Additional observations from a re-analysis of the deposited data

How the results depend on the processing

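The call of KMT2A in MUT against SWP held under all 17 alternatives run for it, with log2 fold changes from -0.77 to -0.55 and adjusted p from 2.2e-05 to 0.0186. It was lost with a log2 fold threshold of 1, where 0 members were called. In MUT against WT the adjusted p alone passed 2 members, and leaving out 1 library at a time called 0 to 1 members there and in SWP against WT. Counts of all genes moved with the thresholds: the adjusted p alone gave 8021, 2083 and 7944 genes in MUT against WT, SWP against WT and MUT against SWP, and a threshold of 1 gave 1647, 505 and 1723. Rescaling to equal totals turned the 2365 higher and 2111 lower calls of MUT against WT into 2874 and 1600, and those of SWP against WT from 450.0 and 622 into 556 and 525. With the replicate block the calls were 4970.0, 1464 and 4773 over all genes, 0, 0 and 1 among the members. Same-numbered libraries of MUT and WT correlated at 0.328, 0.146 and 0.049, and not every library correlated best with its own number, so the block there rests on the number alone. The block also brought the adjusted p in MUT against WT from 0.0763 to 0.0332 for KMT2B and from 0.138 to 0.0387 for SETD1A, and it put no other member on the other side of 0.05 beside those given in the report. Shares without division by length, as the log2 ratio between lines, moved in MUT against WT to -0.193 for KMT2B, 0.0134 for KMT2C, 0.268 for SETD1A and 0.275 for SETD1B, and in MUT against SWP to -0.0174, 0.0005, 0.313 and 0.0038, since long genes then weigh more in the sum. Small differences changed sign. With equal totals KMT2C in MUT against WT was at 0.0358. KMT2D in SWP against WT was at 0.036 with equal totals, 0.0195 with equal upper quartiles, 0.0348 with edgeR and 0.0342 with DESeq2, and RBBP5 at 0.0084 with equal totals, 0.0049 with edgeR and 0.004 with DESeq2. Leaving out 1 library at a time gave ranges across 0 in MUT against WT for KMT2C (-0.1434 to 0.0847), KMT2D (-0.2114 to 0.0749), WDR5 (-0.0215 to 0.0854) and RBBP5 (-0.0217 to 0.1165). It did so in SWP against WT for KMT2B (-0.1473 to 0.0318), KMT2D (-0.1292 to 0.1346), SETD1A (-0.0287 to 0.1935) and RBBP5 (-0.1136 to 0.0406), and in MUT against SWP for KMT2D (-0.2131 to 0.0884). With 3 libraries a line, the spread between libraries limits the printed intervals: per degree of freedom, the chi-square between libraries of a line was 9.10 to 60.2, where counting error alone gives about 1.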
